A study of Mus musculus with 6 samples.

Results

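Keratin RNA was examined in murine oviductal epithelial (MOE) cells for 10 genes, Krt5, Krt7, Krt8, Krt14, Krt17, Krt18, Krt19, Krt20, Krt23 and Krt80, chosen by name as keratins of simple and stratified epithelium. All 10 were found among the 22800 gene symbols listed for each library. MOE HIGH comprised 3 libraries, from passages 90, 103 and 113, and MOE LOW comprised 3 libraries, from passages 8, 9 and 10. The groups are early and late passages of a single line. Its cells were taken from pooled oviducts of adult females of the outbred CD1 strain. No transgene, viral oncoprotein or drug separated the groups, and both grew in medium with serum, growth factor, insulin and estradiol. Each passage gave 1 library, so a p-value here measured the spread between passages of a single line. Total RNA depleted of ribosomal RNA was sequenced, and levels were given as FPKM, fragments scaled to transcript length and to the mapped fragments of the library.

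Keratins form the intermediate filaments of epithelial cells, and each filament is built from heterodimers of an acidic type I chain and a basic type II chain. Krt8 (type II) and Krt18 (type I) encode the usual partners of simple epithelium, where Krt7 and Krt19 are commonly added, and Krt5 (type II) and Krt14 (type I) encode the partners of the basal layer of stratified epithelium. Krt17 marks appendages and wounded epidermis, Krt20 marks intestinal and bladder surface epithelium, Krt23 is a type I keratin of simple epithelia, and Krt80 is a type II keratin found in many epithelia. Of the 10 genes, 6 encode type I and 4 encode type II chains.

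The genes lie in a pair of clusters. In GENCODE annotation of GRCm38, the assembly that mm10 names, 5 members (Krt14, Krt17, Krt19, Krt20 and Krt23) fell within 0.833 Mb of chromosome 11, from 99428403 to 100261029. The other 5 (Krt5, Krt7, Krt8, Krt18 and Krt80) fell within 0.685 Mb of chromosome 15, from 101347444 to 102032027. Krt18 is the only type I member of the 5 on chromosome 15, and 23.7 kb separate its start from the start of Krt8, its partner gene, which is read in the opposite direction. Krt8 lies on the minus strand from 101996698 to 102004482, and Krt18 lies on the plus strand from 102028180 to 102032027.

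RefSeq promoter sequence (GRCm38.p6) was held for 7 of the 10 members. The 150 bases before the RefSeq start are printed for the called members Krt7, Krt20 and Krt23, whose RefSeq start lay within 17 bases of the start of a protein-coding GENCODE transcript. The RefSeq starts of Krt18, Krt8 and Krt14 lay 36, 140 and 1518 bases downstream of that transcript start, inside the gene, and their windows are not shown. The window of Krt7 lies inside the GENCODE gene, which starts upstream in other transcripts, and ends at the start of a protein-coding one. Capitals mark matches, on either strand, to the TATA box core TATAAA, to ATAAAA, which can overlap it and was added after the sequences had been seen, to the AP-1 motif TGANTCA and to the Sp1 motif GGGCGG.
Krt7, chr15:101412253-101412402, plus strand: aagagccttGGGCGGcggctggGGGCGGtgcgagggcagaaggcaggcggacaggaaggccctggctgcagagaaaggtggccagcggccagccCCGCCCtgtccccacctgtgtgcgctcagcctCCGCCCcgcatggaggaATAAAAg
Krt20, chr11:99438154-99438303, minus strand: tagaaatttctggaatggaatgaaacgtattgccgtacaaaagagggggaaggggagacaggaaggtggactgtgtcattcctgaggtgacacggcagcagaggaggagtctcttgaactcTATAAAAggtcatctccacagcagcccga
Krt23, chr11:99493121-99493270, minus strand: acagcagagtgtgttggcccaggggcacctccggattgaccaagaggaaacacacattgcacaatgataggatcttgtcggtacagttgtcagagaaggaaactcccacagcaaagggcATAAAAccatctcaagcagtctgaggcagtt

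Krt20 held TATAAA from base -29 to base -24, counted back from the start, in a run that also matched ATAAAA, and Krt23 held ATAAAA from base -31 to base -26. Krt7 held 4 matches to the Sp1 motif and ATAAAA from base -7 to base -2. None of the 3 windows held the AP-1 motif. Of all 32851 RefSeq promoter windows of this length, 7.57% held TATAAA, 10.1% held ATAAAA, 4.24% held TGANTCA and 28.6% held GGGCGG.

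How many reads lie behind each value is unknown, since FPKM hold no depth. Summed FPKM ranged from 597161 to 770438 in MOE HIGH and from 624733 to 683841 in MOE LOW. The value of 1 fragment, read from genes with the lowest values and taken on the log2 scale relative to passage 8, was -0.37 to -0.22 in MOE HIGH and -0.18 to 0 in MOE LOW. None of the 6 value columns was headed by its own passage, and for 3 libraries (passages 8, 90 and 103) the heading gave a passage of the other group. Each table was deposited under the passage of its GEO record, by which libraries were assigned, and by that assignment 10208 to 10292 genes had at least 1 FPKM in MOE HIGH and 10888 to 10987 in MOE LOW. The label of epithelial cells was checked against 15 genes of epithelial identity. Of these, 11 were under 0.5 FPKM in all 6 libraries, with a highest value of 0.321 FPKM. They include Epcam, an epithelial adhesion molecule, at 0 in all 3 MOE HIGH libraries and at 0.0399, 0 and 0.0357 FPKM in MOE LOW. Cdh1, which encodes E-cadherin, was at 0, 0.0114 and 0.0404 FPKM in MOE HIGH and at 0.0403, 0.0821 and 0.0361 FPKM in MOE LOW. Vim, which encodes the mesenchymal intermediate filament vimentin, was at 4536 ± 1315 FPKM in MOE HIGH and 3623 ± 426 FPKM in MOE LOW (SD, n = 3 each). The other 4 genes of the list reached the minimum for a test. In MOE HIGH, Lsr was at 22.6 to 49.0 FPKM, Esrp2 at 17.3 to 20.3 FPKM and Crb3 at 1.34 to 2.43 FPKM. In MOE LOW, Lsr was at 0.261 to 0.716 FPKM, Esrp2 at 1.94 to 3.28 FPKM and Crb3 at 0.989 to 2.15 FPKM. Spint2 averaged 8.37 ± 1.04 FPKM in MOE HIGH and 5.30 ± 1.69 FPKM in MOE LOW (SD, n = 3 each). Markers of epithelial identity were thus absent or near 0 for most of the list and present for a few genes.

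Keratins did not move together between MOE HIGH and MOE LOW. With limma on log2(FPKM + 1) and a Benjamini-Hochberg adjusted p of 0.05, Krt7, Krt14, Krt18 and Krt80 rose in MOE HIGH, and Krt20 and Krt23 fell. Krt8 and Krt19 were tested and did not pass, and Krt5 and Krt17 were not tested because their mean was under 0.5 FPKM. Of the 8 members tested, 4 were higher, beside 24.3% of the 11621 genes tested, and 2 were lower, beside 32.1%. MOE HIGH and MOE LOW values were fully separate for 6 of the 8, beside 64.0% of the genes tested. Of the members tested, Krt14 reached the minimum mean only through MOE HIGH, and Krt20 and Krt23 reached it only through MOE LOW, so these counts are a description of the 8 and not of all 10 members.

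**Figure D1:**
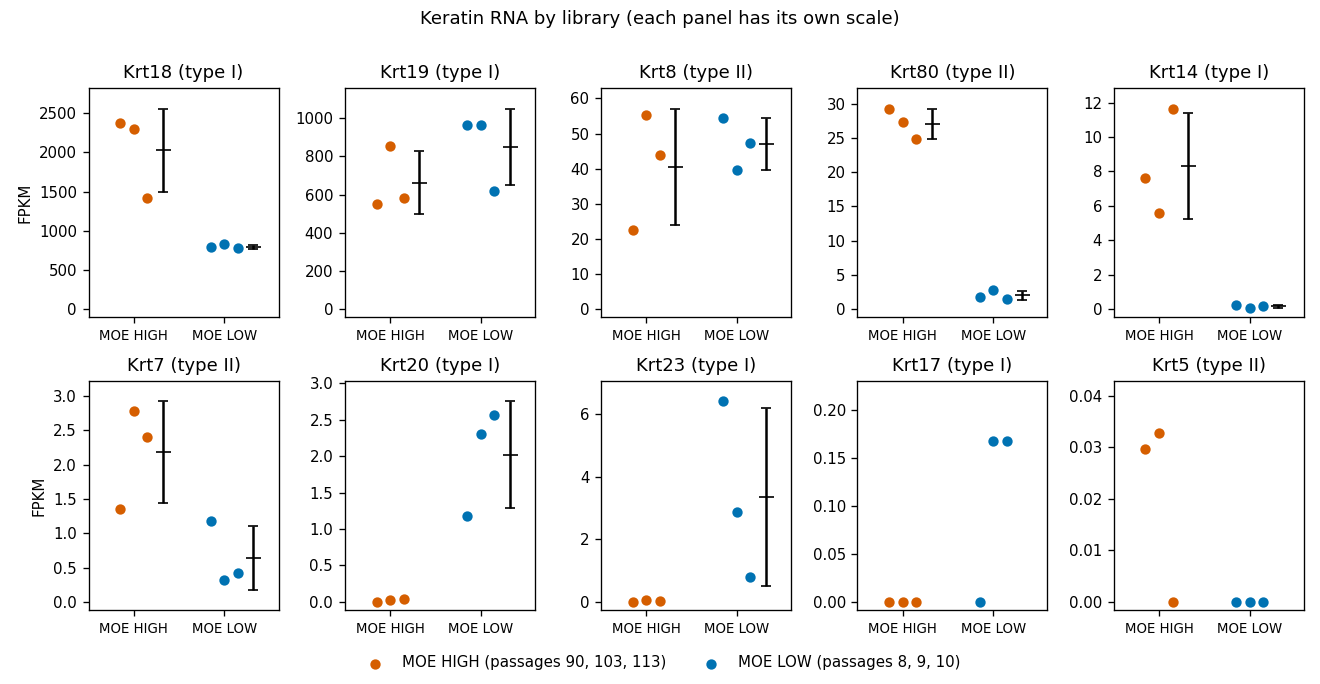
FPKM of the 10 keratin genes in each library, with MOE HIGH (passages 90, 103 and 113, in that order) at the left and MOE LOW (passages 8, 9 and 10) at the right of each panel, and a scale for each gene. Points are libraries and bars are means with SD, left out where a library of the group is listed at 0. Krt18, Krt80, Krt14 and Krt7 are higher in every MOE HIGH library, Krt20 and Krt23 are lower in every one, and the other 4 overlap.

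Among the partners of simple epithelium, Krt18 rose while Krt8 did not pass the test. Krt18 was at 2371, 2299 and 1417 FPKM in MOE HIGH, against 788, 827 and 779 FPKM in MOE LOW. The MOE LOW libraries were nearly equal, and all 3 MOE HIGH libraries were above them, the lowest being passage 113, the library with the lowest summed FPKM. The means were 2029 ± 531 FPKM in MOE HIGH and 798 ± 25.3 FPKM in MOE LOW (SD, n = 3 each), a ratio of 2.54, and limma gave a log2 fold change of 1.31 ± 0.21 (SE) with an adjusted p of 0.0011. By mean level Krt18 ranked 55 among all gene symbols in MOE HIGH and 132 in MOE LOW. Krt18 was not called where limma asked for a change beyond 2-fold (adjusted p = 0.59).

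Krt8 was at 22.6, 55.2 and 44.0 FPKM in MOE HIGH, against 54.4, 39.6 and 47.4 FPKM in MOE LOW. The groups overlapped, and passage 90 of MOE HIGH lay below the other 5 libraries. With 40.6 ± 16.5 FPKM in MOE HIGH and 47.1 ± 7.40 FPKM in MOE LOW (SD, n = 3 each), limma gave a log2 fold change of -0.29, with a 95% interval of -0.98 to 0.40 (adjusted p = 0.44), and of 0.075 without passage 90. A processed pseudogene of Krt8 is annotated on chromosome 7, from 23357125 to 23358069, and how reads shared with such copies were counted is not given in the sources used here, so the level of Krt8 is uncertain to that extent.

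Krt19, a type I keratin of simple epithelium, was the other abundant member and also did not pass. It was at 553, 853 and 585 FPKM in MOE HIGH, against 967, 966 and 618 FPKM in MOE LOW. Passage 10 of MOE LOW lay within the MOE HIGH range. Krt19 averaged 663 ± 165 FPKM in MOE HIGH and 850.2 ± 201 FPKM in MOE LOW (SD, n = 3 each), and its log2 fold change of -0.36 had a 95% interval of -0.90 to 0.19 (adjusted p = 0.23 from limma).

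The remaining keratins of simple epithelium were scarce, and their changes had opposite signs. Krt7, a type II keratin of glandular and ductal epithelium, was at 1.36, 2.79 and 2.40 FPKM in MOE HIGH, against 1.17, 0.317 and 0.424 FPKM in MOE LOW. The groups were separate, but by a narrow gap between passage 90 of MOE HIGH and passage 8 of MOE LOW, and the MOE LOW mean of 0.638 FPKM was 0.371 FPKM without passage 8. limma gave Krt7 a log2 fold change of 0.97 ± 0.24 (SE) with an adjusted p of 0.0097. With a pseudocount of 0.1 or 0.01 in place of 1, the log2 fold change of Krt7 was 1.75 or 1.93.

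Krt20 fell to values close to 0 in MOE HIGH, where it was listed at 0, 0.0287 and 0.0462 FPKM, against 1.18, 2.30 and 2.57 FPKM in MOE LOW. The highest MOE HIGH library was far under the lowest MOE LOW library. limma gave a log2 fold change of -1.53 ± 0.18 (SE) with an adjusted p of 0.00026 on the log2(FPKM + 1) scale, which compresses low values, and it was -4.03 and -6.11 with pseudocounts of 0.1 and 0.01.

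Krt23 showed the same layout with a wider spread in MOE LOW. Its values were 0, 0.0469 and 0.0323 FPKM in MOE HIGH, against 6.41, 2.87 and 0.786 FPKM in MOE LOW. No MOE HIGH library reached the lowest of MOE LOW, and the MOE LOW mean of 3.35 FPKM was 1.83 FPKM without passage 8. Its log2 fold change by limma was -1.86 ± 0.44 (SE, adjusted p = 0.0077), and it was -4.37 and -6.41 with pseudocounts of 0.1 and 0.01. Krt20 and Krt23 are close neighbours in the cluster on chromosome 11, where Krt20 runs from 99428403 to 99438150 and Krt23 from 99477974 to 99493137. Neither passed for a change beyond 2-fold (adjusted p = 0.096 for Krt20 and 0.32 for Krt23 from limma).

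Among Krt80 and the keratins of stratified epithelium, Krt80 and Krt14 rose and had the largest increases of the 10 members. Krt80 was at 29.2, 27.4 and 24.8 FPKM in MOE HIGH, against 1.80, 2.75 and 1.50 FPKM in MOE LOW. The groups were far apart, and MOE HIGH was tight, while MOE LOW ranged from 1.50 to 2.75 FPKM. Krt80 averaged 27.1 ± 2.19 FPKM in MOE HIGH and 2.02 ± 0.654 FPKM in MOE LOW (SD, n = 3 each), a ratio of 13.5, with a log2 fold change of 3.24 ± 0.16 (SE, adjusted p = 2.6e-06 from limma). Krt80 lies on chromosome 15 from 101347444 to 101370162. Its change ranked 64 from the highest among the 11621 genes tested.

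Krt14 was at 7.63, 5.60 and 11.6 FPKM in MOE HIGH, against 0.214, 0.0397 and 0.195 FPKM in MOE LOW. Every MOE HIGH library was far above every MOE LOW library, in which the gene was barely listed. By limma, Krt14 had a log2 fold change of 2.97 ± 0.22 (SE, adjusted p = 2.1e-05), and it was 5.10 and 5.92 with pseudocounts of 0.1 and 0.01. Its means were 8.29 ± 3.08 FPKM in MOE HIGH and 0.149 ± 0.0954 FPKM in MOE LOW (SD, n = 3 each), a ratio of 55.6. Krt80 and Krt14 both passed for a change beyond 2-fold.

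Krt5, the usual type II partner of Krt14, was nearly absent from all libraries. The values of Krt5 were 0.0297, 0.0327 and 0 FPKM in MOE HIGH, and at 0 in all 3 MOE LOW libraries. Krt17 was listed at 0 in all 3 MOE HIGH libraries, against 0, 0.168 and 0.168 FPKM in MOE LOW. Both groups overlapped for each gene, and no fold is given against a group listed at 0. Krt14, Krt16 and Krt17 are close paralogs, and how fragments from stretches they share were assigned is not given in the sources used here, so the levels of Krt14 and Krt17 are uncertain to that extent. Trp63, which encodes a transcription factor of basal epithelial cells, was listed at 0 in MOE HIGH and at 0, 0.0337 and 0.0517 FPKM in MOE LOW.

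**Figure D2:**
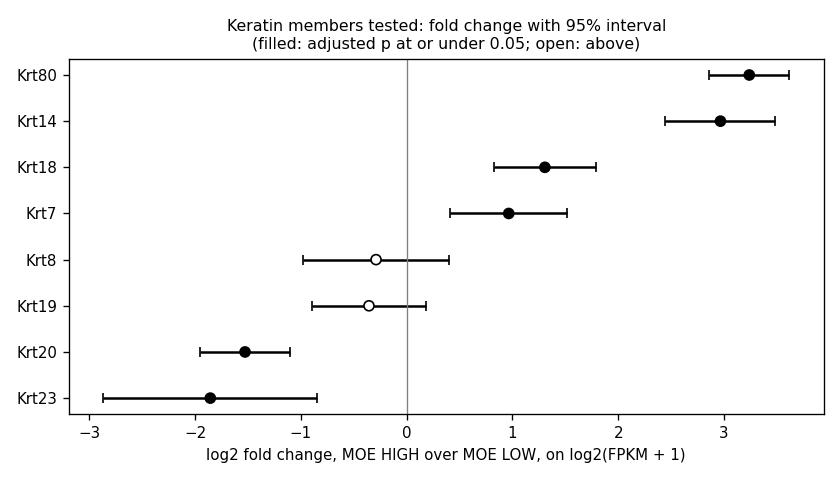
The log2 fold change of MOE HIGH over MOE LOW on log2(FPKM + 1) for the 8 keratin genes tested, with 95% intervals from limma. Filled points passed an adjusted p of 0.05, with Krt80 at 3.24 and Krt14 at 2.97 the highest and Krt23 at -1.86 the lowest. The intervals of Krt8 and Krt19, drawn open, include 0.

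FPKM are per length, so levels of different keratins can be added. The 10 members summed to 2984, 3242 and 2084 FPKM in MOE HIGH, against 1820, 1841 and 1450 FPKM in MOE LOW. The groups did not overlap, and the sum was 1.61-fold higher in MOE HIGH on the log scale. A two-sided exact permutation test gave p = 0.1, the smallest that 3 libraries against 3 can give. Members held 0.396% ± 0.0511 of all summed FPKM in MOE HIGH and 0.257% ± 0.0213 in MOE LOW (SD, n = 3 each). Without Krt8 and Krt18, the other members summed to 701 ± 163 FPKM in MOE HIGH and 858 ± 203 FPKM in MOE LOW, a log2 difference of -0.29, and the groups overlapped.

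Nearly all keratin RNA was of Krt18 and Krt19, whose balance differed between the groups. Together they held 97.1% ± 0.978 of the summed member FPKM in MOE HIGH and 96.7% ± 0.584 in MOE LOW. Krt18 held 79.4%, 70.9% and 68.0% in MOE HIGH, against 43.3%, 44.9% and 53.7% in MOE LOW. Krt19 held 18.5%, 26.3% and 28.0% in MOE HIGH, against 53.1%, 52.5% and 42.6% in MOE LOW. The ratio of Krt18 to Krt19 was 4.29, 2.70 and 2.42 in MOE HIGH, against 0.815, 0.856 and 1.26 in MOE LOW, and the groups did not overlap (p = 0.1 from a two-sided exact permutation test, the smallest possible). In MOE LOW the ratio was over 1 in passage 10 and under 1 in passages 8 and 9.

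**Figure D3:**
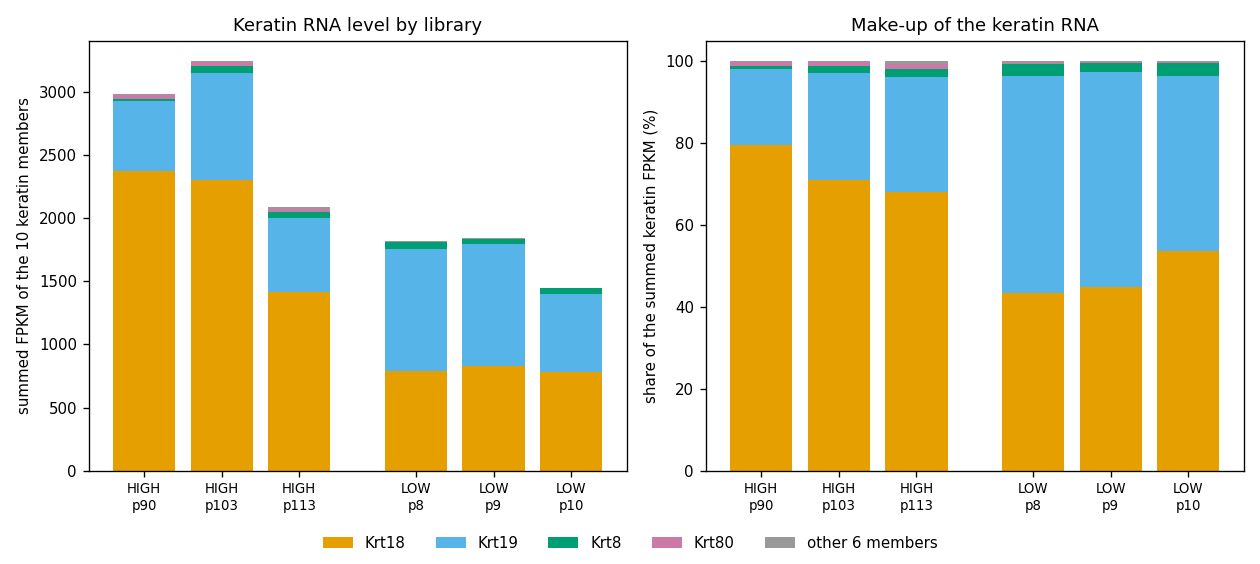
Left, summed FPKM of the 10 keratin genes in each library, stacked by gene, and right, the share in percent that each gene held of that sum, for MOE HIGH (passages 90, 103 and 113) and MOE LOW (passages 8, 9 and 10). Krt18 holds 68.0% to 79.4% in MOE HIGH and 43.3% to 53.7% in MOE LOW. Krt19 holds 18.5% to 28.0% in MOE HIGH and 42.6% to 53.1% in MOE LOW, and the other 8 members together hold 2.04% to 3.98% in MOE HIGH and 2.61% to 3.66% in MOE LOW.

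Type I keratin RNA was in large excess over type II in every library. Type I members summed to 2700 ± 606 FPKM in MOE HIGH and 1654 ± 219.8 FPKM in MOE LOW (SD, n = 3 each), and type II members to 69.9 ± 16.1 FPKM in MOE HIGH and 49.8 ± 7.36 FPKM in MOE LOW. Type I over type II was 55.1, 37.0 and 28.3 in MOE HIGH, against 30.7, 42.2 and 28.4 in MOE LOW. These ratios overlapped (p = 0.7 from a two-sided exact permutation test). Krt8 averaged 40.6 FPKM of the type II sum in MOE HIGH and 47.1 FPKM in MOE LOW. The size of the excess thus carries the uncertainty in the level of Krt8 given above. Within type II, Krt80 held 0.978%, 0.844% and 1.19% of the summed member FPKM in MOE HIGH, against 0.0987%, 0.149% and 0.103% in MOE LOW, and Krt8 held 1.52% ± 0.694 in MOE HIGH and 2.80% ± 0.582 in MOE LOW.

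The ratio within the pair of neighbouring genes differed between the groups. Krt18 over Krt8 was 105, 41.7 and 32.2 in MOE HIGH, against 14.5, 20.9 and 16.4 in MOE LOW. All 3 MOE HIGH ratios were above the MOE LOW ratios, and passage 90, where Krt8 was lowest, stood apart, so that the MOE HIGH mean of 59.6 was 36.9 without it. The ratio was 3.05-fold higher in MOE HIGH on the log scale (p = 0.1 from a two-sided exact permutation test, the smallest possible). The uncertainty in the level of Krt8 applies to this ratio too.

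**Figure D4:**
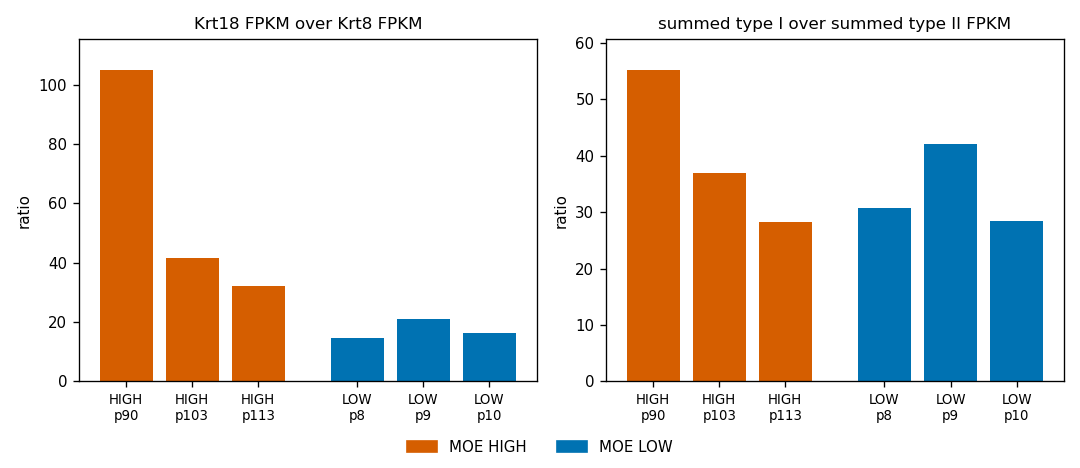
Ratio of Krt18 to Krt8 FPKM (left) and of summed type I to summed type II FPKM (right) in each library of MOE HIGH and MOE LOW, with bars from 0. Krt18 over Krt8 is 32.2 to 105 in MOE HIGH and 14.5 to 20.9 in MOE LOW, and the type I to type II ratios of the groups overlap.

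Other keratins added little. Of 38 further keratin symbols in the files, 20 were listed at 0 in all 6 libraries and 2 reached a mean of 0.5 FPKM. Krt10, a type I keratin of differentiating epidermis, was at 3.55, 2.50 and 2.21 FPKM in MOE HIGH, against 1.37, 1.40 and 1.36 FPKM in MOE LOW, and it rose (log2 fold change 0.64, adjusted p = 0.0065 from limma). Krt13, a type I keratin of mucosal stratified epithelium, was at 0, 0.310 and 0 FPKM in MOE HIGH, against 2.81, 3.66 and 1.40 FPKM in MOE LOW, and it fell (log2 fold change -1.67, adjusted p = 0.00069 from limma). Among the 36 not tested, the highest mean was 0.196 FPKM, that of Krt39. Krt79, a type II keratin, was listed at 0 in MOE HIGH and at 0.245, 0.127 and 0.223 FPKM in MOE LOW. Krt15, a basal type I keratin, was listed at 0 in MOE HIGH and at 0.166, 0.122 and 0.210 FPKM in MOE LOW. Krt16 was at 0.0773, 0 and 0.104 FPKM in MOE HIGH and at 0, 0.0394 and 0.0390 FPKM in MOE LOW.

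Genes whose products anchor keratin filaments to junctions moved in both directions. Of 20 genes listed as anchors, 18 were in the files and 8 were tested, with 4 higher, 3 lower and 1 that did not pass. Their median log2 fold change was 0.082, beside -0.052 over all genes tested. For this and the lists below, the shares over all genes tested were 24.3% higher and 32.1% lower. Some genes of the lists below reached the minimum mean only through the group where they were higher. Those counts thus describe only the genes tested. Ppl, which encodes the plakin periplakin, rose to 50.2 ± 11.5 FPKM in MOE HIGH, against 0.562 ± 0.0603 FPKM in MOE LOW (log2 fold change 5.01, adjusted p = 3.1e-07 from limma). Itga6, an integrin chain of hemidesmosomes, rose to 32.1 ± 5.20 FPKM in MOE HIGH, against 9.92 ± 0.991 FPKM in MOE LOW. The hemidesmosome genes Itgb4 and Col17a1 were near 0 and not tested. Their means were 0.0696 and 0.0105 FPKM in MOE HIGH, against 0.273 and 0.0383 FPKM in MOE LOW. The plakin gene Plec and the plakophilin gene Pkp4 rose by log2 values of 0.36 and 0.31. Pkp2, Dst and Jup, which encode plakophilin 2, dystonin and plakoglobin, fell, with log2 fold changes of -0.83, -0.64 and -0.47. Dsp, which encodes desmoplakin, the main link of keratin to desmosomes, was at 0.152 FPKM or less in every library.

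Of 15 genes of epithelial identity, 4 were tested, with 3 higher, 0 lower and 1 not passing, and a median log2 fold change of 1.52. Lsr reached the minimum mean only through MOE HIGH, and 11 genes were not tested. The counts and the median thus describe the 4 and not the 15. Lsr, a tricellular junction gene, was at 38.8, 49.0 and 22.6 FPKM in MOE HIGH, against 0.716, 0.518 and 0.261 FPKM in MOE LOW. Esrp2, an epithelial splicing regulator, was at 20.3, 18.4 and 17.3 FPKM in MOE HIGH, against 3.28, 2.73 and 1.94 FPKM in MOE LOW. Spint2, a protease inhibitor gene, rose with a log2 fold change of 0.60 (adjusted p = 0.031 from limma). Of 16 other intermediate filament genes, 7 were tested, with 3 higher, 3 lower and 1 not passing, and a median log2 fold change of 0.29. The lamin genes Lmnb2, Lmnb1 and Lmna rose, with log2 fold changes of 0.88, 0.79 and 0.65. Nes, which encodes nestin, fell to 1.46 ± 0.701 FPKM in MOE HIGH, against 123 ± 5.05 FPKM in MOE LOW. Des, the muscle filament desmin, was at 0.212, 0.134 and 0.265 FPKM in MOE HIGH, against 117, 33.9 and 13.2 FPKM in MOE LOW, and it fell.

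**Figure D5:**
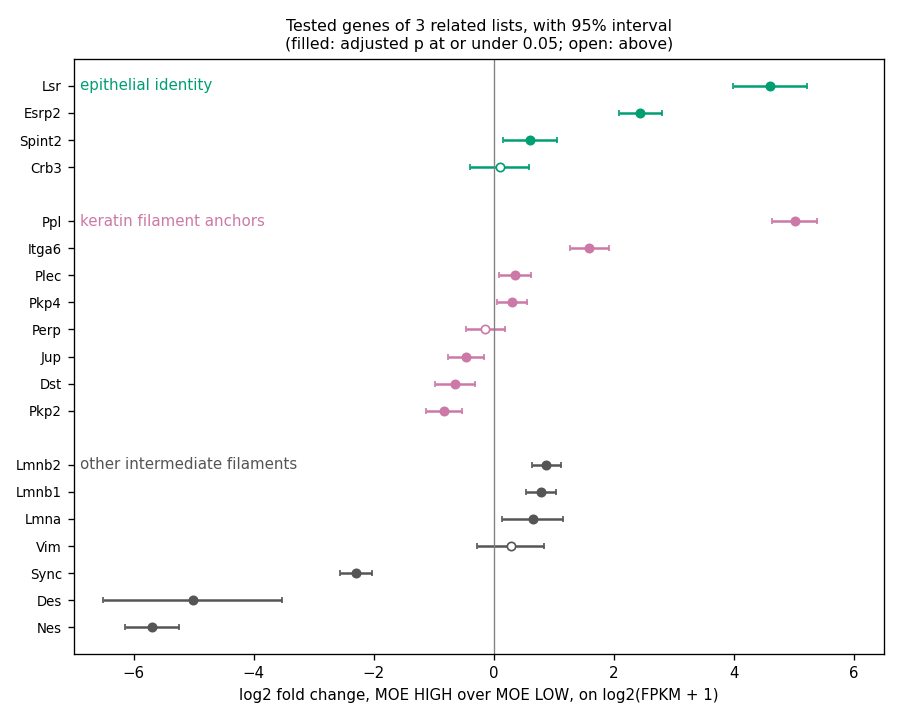
The log2 fold change of MOE HIGH over MOE LOW on log2(FPKM + 1), with 95% intervals from limma, for the tested genes of 3 lists, epithelial identity, keratin filament anchors and other intermediate filaments. Filled points passed an adjusted p of 0.05. Ppl at 5.01 and Lsr at 4.60 are the highest, and Nes at -5.69 is the lowest.

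Of 18 genes that regulate keratin genes or epithelial fate, 7 were tested, with 4 higher, 1 lower and 2 not passing, and a median log2 fold change of 1.31. Cebpb, a transcription factor gene of epithelial differentiation, was at 251, 315 and 160 FPKM in MOE HIGH, against 85.7, 65.2 and 56.7 FPKM in MOE LOW. The epithelial Krüppel-like factor gene Klf5 and the receptor gene Notch1 rose, with log2 fold changes of 1.31 and 1.85. Elf3 fell to 0.383 ± 0.305 FPKM in MOE HIGH, against 3.67 ± 0.879 FPKM in MOE LOW (log2 fold change -1.76, adjusted p = 0.00017 from limma). Of 11 genes for chaperones and binding partners of keratins found in the files, 10 were tested, with 4 higher, 2 lower and 4 not passing, and a median log2 fold change of 0.12. The small heat shock gene Hspb1 fell to 10.1 ± 2.26 FPKM in MOE HIGH, against 380 ± 25.1 FPKM in MOE LOW (log2 fold change -5.12, adjusted p = 2.3e-07 from limma). The trichoplein gene Tchp, whose product binds keratin 8 and keratin 18 filaments in human cells, rose with a log2 fold change of 0.95.

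Markers of other cell types moved with the groups. The 10 smooth muscle markers summed to 70.9 to 109 FPKM in MOE HIGH and 8367 to 12172 FPKM in MOE LOW, and of the 8 tested all were lower. The 10 fibroblast markers summed to 22.4 to 32.7 FPKM in MOE HIGH and 596 to 988 FPKM in MOE LOW, and of the 7 tested 6 were lower. Several of the lower genes in both lists reached the minimum mean only through MOE LOW. The mesothelium, urothelium and squamous lists also hold genes that reached it only through the group where they were higher. The counts of all these lists thus describe only the genes tested. In 9 mesothelium markers the sums were 259 to 342 FPKM in MOE HIGH and 74.9 to 85.2 FPKM in MOE LOW, with 3 of 5 tested genes higher and 2 lower, and Calb2, which encodes calretinin, was listed at 0 in all 6 libraries. Urothelium markers, 9 genes that include Upk3b of the mesothelium list, summed to 153 to 174 FPKM in MOE HIGH and 18.4 to 22.8 FPKM in MOE LOW, with 3 of 5 tested genes higher and 2 lower. Upk3b and Upk1b, uroplakin genes, rose (log2 fold changes 4.64 and 5.35), while the uroplakin genes Upk2 and Upk3a were listed at 0 in all 6 libraries. Gata3 also rose (log2 fold change 1.35), and Foxa1 and Pparg fell (log2 fold changes -2.14 and -2.43). Squamous and basal markers, 12 genes, summed to 93.4 to 219 FPKM in MOE HIGH and 4233 to 5593 FPKM in MOE LOW, with 2 of 5 tested genes higher and 3 lower. Nearly all of the MOE LOW sum was Sprr1a, a cornified envelope gene, at 5576, 5386 and 4223 FPKM. Sprr1a fell to 72.5, 82.3 and 33.7 FPKM in MOE HIGH (log2 fold change -6.40). The MOE LOW sums thus follow Sprr1a, and the difference between the sums does not describe the list. Sbsn, the suprabasin gene of upper epidermal layers, rose to 86.5 ± 39.5 FPKM in MOE HIGH, against 5.14 ± 2.74 FPKM in MOE LOW (log2 fold change 3.86). In bulk RNA, fewer cells of a type and less RNA per cell cannot be told apart, and the part of these markers in the keratin changes was not tested.

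Of the other markers, 6 secretory oviduct genes included 5 tested, of which 1 was higher and 2 were lower. Msln, also in the mesothelium list, rose to a mean of 166 FPKM in MOE HIGH, against 19.95 FPKM in MOE LOW. Emx2 fell to a mean of 3.84 FPKM in MOE HIGH, against 12.7 FPKM in MOE LOW. Wt1, also in the mesothelium list, fell to a mean of 29.9 FPKM in MOE HIGH, against 50.6 FPKM in MOE LOW. Pax8, the secretory lineage factor, did not pass (log2 fold change -0.12), and neither did Ovgp1 (log2 fold change 0.0102). In 7 ciliated cell genes 5 were tested, with 2 higher and 1 lower. Endothelium markers, 8 genes, summed to 0.171 to 0.238 FPKM in MOE HIGH and 4.88 to 5.71 FPKM in MOE LOW, with 2 of 2 tested genes lower. Both tested genes reached the minimum mean only through MOE LOW, so this count does not describe the list. Leukocyte markers, 7 genes, summed to 2.84 to 4.47 FPKM in MOE HIGH and 1.99 to 3.19 FPKM in MOE LOW, with 1 of 2 tested genes higher. By the root mean square difference of centred log2(FPKM + 1) values over the 6 libraries, the genes most like Krt8 were Ptprj (0.21), Nktr (0.22) and Tob1 (0.22), and those most like Krt7 were Ltbp4 (0.17), Kazn (0.18) and 1810011O10Rik (0.20) (only genes averaging 5 FPKM or more were compared).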

How the data were processed

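Strand-specific libraries were aligned by the authors with TopHat2 2.0.8b (mm10), and the deposited FPKM, 1 table for each library, were estimated over UCSC genes with tools that the submitters' notes give as Cuffdiff 2.1.1. The heading over the values was not the library's passage in any of the 6 tables, so the passage came from the GEO record. The tables held 23141 entries for 22800 symbols, and where a symbol repeated, which concerned 236 symbols and 0 members, only its most abundant entry entered. From the deposited FPKM, log2(FPKM + 1) was computed for the 11621 genes averaging 0.5 FPKM or more. The tool limma 3.58.1 (R 4.3.3), with its variance trend and no block, compared MOE HIGH with MOE LOW. The Benjamini-Hochberg adjustment ran over all genes tested. This scale understates the change of low genes. Single values per library were compared by two-sided exact permutation tests. Of these steps, only the limma fit was tested on simulated data, in which far fewer genes were changed than were called here. The members and gene lists were chosen with earlier results of these data known. The text names all members and the 6 further keratins of highest mean. From each list it could name up to 4 called genes per direction with 5 FPKM or more in a group. Some genes that qualified are not named, among them Acta2, Tagln, Col1a1 and Tubb4b. Epcam, Cdh1, Vim, Trp63, Dsp, Pax8, Ovgp1, Calb2, Upk2, Upk3a, Gata3, Pparg, Elf3 and Crb3 were named after their values were seen. So were Itgb4 and Col17a1. Coordinates are from GENCODE M21. Python 3.11.15 with scipy 1.17.1 was used for the other steps. Alternatives were other pseudocounts, filters, scalings and thresholds, a block for replicate number, and fits without each library in turn.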

Additional observations from a re-analysis of the deposited data

How the results depend on the processing

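Against a 2-fold change, limma's treat called 303 of the 11621 genes tested higher and 907 lower in MOE HIGH. Of the 8 members tested, 2 were higher (Krt80 and Krt14) and 0 were lower by limma's treat (2 lower at an unadjusted p of 0.05). With a mean of at least 5 FPKM, 8325 genes were tested, of which 2287 were higher and 2350 were lower. At that filter 2 members were higher and 0 were lower, because Krt7, Krt14, Krt20 and Krt23 were then not tested. Member counts stayed at 4 higher and 2 lower under every other alternative run, among them pseudocounts of 0.1 and 0.01, no filter, equal totals, median ratio and upper quartile scaling, an adjusted p of 0.01 and each library left out. Samples with the same replicate number had no batch named in the labels. Their deviations correlated by -0.024, -0.15 and 0.12, within the range of -0.19 to 0.22 for unlike numbers. These values show no pairing but cannot exclude it, since deviations from a mean of 3 samples sum to 0. With the replicate block, 2967 genes were higher and 3839 lower, and the members counted were still 4 and 2. The Krt8 log2 fold change, -0.29, ranged from -0.55 to 0.075 with each library left out and was above 0 only without passage 90, and the type II to type I ratio, at -0.22 on the log2 scale, ranged from -0.44 to 0.041 in the same way, above 0 also without passage 90. The log2 difference in summed keratin FPKM, 0.68, was -0.29 without Krt8 and Krt18. Absolute depth is unknown, so values near 0 carry no counting interval.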
